A study of Mus musculus with 19 samples.

Results

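The 135 probes described here are those of the authors' table of processed values whose mean over the 4 control arrays was at least 300 and under 1000 intensity units. They were chosen by these control levels from the 747 probes of that table, so the control levels are given as a description only. Of the other probes of the table, 359 had a control mean under 300, 194 lay from 1000 to under 10000, and 59 were at 10000 or more.

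The series used 1-colour arrays to measure small RNA of the hippocampus (right side) in C57BL/6 mice, all adult males, and it asks which miRNAs respond to lowering or inhibiting glycogen synthase kinase 3 (GSK3). All groups share strain, sex and tissue. Control mice (n = 4) had vehicle into the nose on alternate days over 3 days, at 5 µL for each nostril. Mice of the siGSK3b group received 10 µg of siRNA against GSK3b on that schedule (n = 4). Mice of the L803mts group received 60 µg of the peptide GSK3 inhibitor L803mts on that schedule (n = 4). The label of replicate 4 reads 11 µg in the first of these groups and 61 µg in the other, and the protocol text spells the inhibitor L808mts. Mice of the lithium group (n = 4) ate lithium chow over 4 weeks. Its strength is 0.2% by the labels of the samples but 2% by the protocol. Ketamine was given intraperitoneally at 10 mg/kg for 24 h (n = 3). The only control group received vehicle into the nose, so lithium and ketamine have no control by their own route here. The labels do not say that each sample is a separate mouse, so the p-values rest on the spread among samples, which may be technical. Each group was hybridised on its own slide, except that L803mts replicate 2 sat on a separate slide, so slide and treatment cannot be told apart.

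MicroRNAs are short RNAs that guide Argonaute proteins to partly complementary sites in messenger RNAs, which lowers the stability or translation of those messages. In the hippocampus they act in neuronal maturation and synaptic plasticity. GSK3 is a serine/threonine kinase with the isoforms GSK3a and GSK3b, lithium inhibits it directly, and ketamine, an NMDA receptor blocker, has been reported to raise its inhibitory phosphorylation. The probes carry vendor codes that the files and reference tables used here do not pair with miRNA names or sequences. Each probe is therefore reported by its code, without a sequence or a role, and lists of neuronal, glial or blood miRNAs could not be applied to check the tissue.

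By level, the 135 probes were in the middle of the authors' table and well above the middle of the array. The table's own median ran from 315 to 352 intensity units over the 19 arrays, at the lower edge of the 300 to 1000 band. Among the 3421 probes tested on the arrays, the mean log2 level of the 135 probes lay between the 75.75 and the 84.41 percentile, with a median at the 80.72 percentile. The name low-abundance therefore holds only against the bright probes of the table. All 135 were above the detection limit on all 19 arrays, none had a saturated spot (0), and 2 of their 7695 spots were marked not found by the scanner software. The median background-subtracted signal of the 135 probes was 4.38 times the local background on L803mts 2 and 8.37 times on L803mts 1, the lowest and the highest array. For arrays the number of arrays limits the precision, not a read depth.

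The band was narrow enough that single arrays moved probes across its edges. Of the 135 probes, 105 lay between 300 and 1000 on every control array, while over all 19 arrays 29 reached 1000 or more somewhere and 37 fell under 300 somewhere. At the lower edge ORB_0608010 had a control mean of 301.5 and ORB_1210464 of 302, the lowest of the 135. Just outside lay ORB_0409033 at 298.5 and ORB_1210242 at 296.2. At the upper edge 3273 had 993.8 and 2319 had 997.8, the highest of the 135, while 1287 at 1008 and ORB_1210156 at 1011 were left out. With group means of the treated arrays, 121 of the 135 stayed in the band under siGSK3b, 121 under L803mts, 125 under lithium and 123 under ketamine.

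The codes themselves differed with level. Of the 135 probes, 55 (40.74%) had a plain number as code and 80 (59.26%) a code starting with ORB. Plain numbers made up 20.61% of the probes under 300, 58.25% of those from 1000 to under 10000 and 84.75% of those at 10000 or more. What the kinds of code stand for was not analysed here.

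Array medians of the 135 probes lay close together in the authors' values and after normalization. The authors' values had array medians of 505 to 577 in control. The medians of siGSK3b arrays were 540 to 567 and those of L803mts arrays 542 to 572, while lithium arrays had 554 to 581 and ketamine arrays 553 to 589. The siGSK3b, L803mts, lithium and ketamine ranges all overlapped the control range. On the normalized log2 scale the array medians ran from 9.20 on siGSK3b 1 to 9.37 on lithium 3. Quantile normalization gives all arrays the same distribution, so the method itself holds these log2 medians close. Before it, the background-subtracted scanner medians of the 135 ran from 341.67 on L803mts 2 to 736.67 on control 1. Across the 135 probes, arrays of the same group were correlated with a median r of 0.859 (27 pairs of arrays), and arrays of different groups with a median r of 0.706 (144 pairs), on normalized log2 intensities. Arrays of a group also share a slide, apart from L803mts 2, and these correlations are across probes, which are not independent replicates.

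The spread between arrays of a group is given as a description. The within-group SD had a median of 0.154 log2 units over the 135 probes, from 0.0763 for ORB_1210666 to 1.14 for 2324, against a median of 0.114 over the 3421 tested probes. The SD between the 3 spots of a probe on an array had a median of 0.146 for the 135 and 0.170 for all tested probes. A within-group SD above 0.5 was found for 6 of the 135 (4.44%) and for 43 of all tested probes (1.26%). Among the 6, 2324, 1490 and ORB_1210296 were in the band only through control 1. That array lay far above their other control arrays and so also widened their SD. The share of the 135 therefore depends partly on how the probes were chosen. Probes from 1000 to under 10000 had a median within-group SD of 0.152 and 9 of 194 above 0.5 (4.64%), so a share of this size was not particular to the band.

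At the steady end, ORB_1210464, ORB_1210666 and 1943 had the smallest SD over all 19 arrays, at 0.0852, 0.0920 and 0.0958 log2 units. ORB_1210464 averaged 8.52 ± 0.07 (SD, n = 4) in control, 8.50 ± 0.07 (n = 4) in siGSK3b, 8.49 ± 0.12 (n = 4) in L803mts, 8.59 ± 0.09 (n = 4) in lithium and 8.46 ± 0.04 (n = 3) in ketamine. Its whole range over 19 arrays was 0.27 log2 units. The 3 spots of 1943 differed by more than its arrays did, with a spot SD of 0.397.

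At the variable end, 2324 had the largest SD over all arrays, 1.59 log2 units, followed by ORB_1210296 at 0.755 and ORB1101 at 0.750. In normalized log2 intensity 2324 read 10.42, 11.19, 10.48 and 11.81 in siGSK3b, 10.86, 8.21, 7.72 and 7.75 in control, 10.00, 10.69, 10.72 and 7.54 in L803mts, 7.60, 7.76, 7.64 and 7.18 in lithium, and 10.61, 10.69 and 8.48 in ketamine, from replicate 1 on. Control 1, all siGSK3b arrays, L803mts 1 to 3 and ketamine 1 and 2 were high, and every other array was low. The lowest and highest arrays differed 24.7-fold. In the authors' values its control arrays read 1784, 231, 149 and 150, with a mean of 578.5 and a median of 190.5. Without control 1 the control mean would be 176.7 for 2324, 250.7 for ORB_1210296, 276.7 for 1490 and 290.7 for 2856, all under 300, so the place of these 4 probes in the band rests on control 1. ORB1101 would stay in it at 537.7. Over all 135 probes, 13 leave the band on leaving out 1 of the control arrays.

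ORB_1210296 read 9.76, 10.03, 9.70 and 10.47 in siGSK3b, 9.83, 8.30, 8.31 and 8.34 in control, 9.54, 10.02, 9.79 and 8.37 in L803mts, 8.53, 8.42, 8.46 and 8.42 in lithium, and 9.59, 9.81 and 8.88 in ketamine. ORB1101, 1490 and 2856, the last of them named also by the tests among treatments, had the same 10 brightest arrays as these probes. The gap between these 10 arrays and the brightest of the other 9 was 1.52 log2 units for 2324, 0.66 for ORB_1210296, 0.32 for ORB1101, 1.06 for 1490 and 0.50 for 2856. The split ran through the control slide, the main L803mts slide and the ketamine slide, while all siGSK3b arrays were on its high side and all lithium arrays on its low side. The part of slide or treatment in it was not tested. Since these 5 probes were grouped after their values were seen, no test was made on them as a set. By this split alone, all 5 lay higher in the siGSK3b arrays than in the lithium arrays without overlap, which is no added result.

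Differences among the 4 treatments leave out the means of the control arrays that chose the probes. The control arrays still entered the shared estimate of the spread. By limma's F test none of the 135 probes (0) passed an adjusted p of 0.05, against 0.263% of all 3421 tested probes. At an unadjusted p under 0.05 there were 32 of the 135 (23.7%), against 14.97% of all tested probes. The lowest adjusted p was 0.0622 for ORB_1112258, and ORB_0511551 and 1994 followed at 0.0661 each. In the authors' own values, fitted in the same way over their 747 probes, the F test called 4 of the 135, against 1.74% of all 747. These were 2856, ORB_1112258, 2324 and ORB_1210519, each at an adjusted p of 0.0447. Of them, 2324 and 2856 were in the band only through control 1, and ORB_1210519 would leave it without control 2. The count therefore depends partly on how the probes were chosen. The number called thus differed between the sets of values. With the spread estimated from the treated arrays alone, the F test called 0 of the 135. The share of all tested probes called in that fit is not given, so nothing is read from the count.

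Between pairs of treatments, lithium against siGSK3b called 1 of the 135 probes, against 0.0585% of all tested. ORB_1112258 read 9.87, 9.63, 9.62 and 9.69 in lithium, 9.16, 9.07, 9.07 and 8.81 in siGSK3b, 9.29, 8.85, 9.22 and 9.50 in L803mts, 9.46, 9.33 and 9.23 in ketamine, and 8.78, 9.06, 9.09 and 8.90 in control. Every lithium array lay above every array of the other groups. It rose 1.60-fold in lithium over siGSK3b, a log2 difference of 0.68 ± 0.12 (SE), with an adjusted p of 0.0392 by limma. Against L803mts its log2 difference was 0.49 (adjusted p = 0.269 by limma), also without overlap. In 13 of 33 alternatives the call against siGSK3b held. Here and below, the 33 include other rules for choosing the 135. These leave the fit of a single probe as it is and could not lose a call. It was lost, for example, on leaving out any siGSK3b, lithium or ketamine array, and also without control 2 or control 4.

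The same pair had larger differences that did not pass in the normalized scanner values. For 2856, in the band only through control 1, the log2 difference was -1.49 ± 0.30 (SE; adjusted p = 0.076 by limma), with 9.54, 9.67, 9.29 and 10.23 in siGSK3b and 8.23, 8.22, 8.16 and 8.17 in lithium. For 2324, likewise in the band only through control 1, it was -3.43 ± 0.74 (SE; adjusted p = 0.0924 by limma). Neither probe overlapped between the groups. In the authors' values lithium against siGSK3b called 4 of the 135, against 1.61% of all 747. There 2324 fell by 4.08 on the log2 scale (adjusted p = 0.0132 by limma), 2856 fell by 1.79 (0.013) and ORB_1210296 fell by 1.81 (0.0187), and ORB_1112258 rose by 0.69 (0.0132). Like 2324 and 2856, ORB_1210296 was in the band only through control 1.

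As a group, the 135 probes had a median log2 difference of 0.09 in lithium against siGSK3b, against 0.02 for all tested probes. Of the 135, 110 (81.48%) had a difference above 0, against 58.02% of all tested. The medians in the authors' values were 0.04 for the 135 and 0.01 for all. With spots marked not found left out before the arrays were normalized, the median of all tested probes moved to -0.14 and that of the 135 to -0.25, and 2247 probes were then tested. The median of the 135 was above 0 under median scaling (0.08), cyclic loess (0.01) and the authors' table, so the direction turned with the handling of not-found spots and no shift of the band is stated.

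Ketamine against siGSK3b called 1 of the 135 probes, against 0.438% of all tested. ORB_1210519 read 8.39, 8.36 and 8.25 in ketamine, 8.89, 8.93, 8.61 and 8.96 in siGSK3b, 8.61, 8.66, 8.82 and 8.90 in L803mts, 8.44, 8.69, 8.88 and 8.81 in lithium, and 8.52, 8.71, 8.44 and 8.56 in control. The ketamine arrays lay below all other arrays. It fell 1.43-fold against siGSK3b, a log2 difference of -0.51 ± 0.11 (SE; adjusted p = 0.0456 by limma), and the call held in 12 of 33 alternatives. It was lost on leaving out any control array, and without control 2 the probe's control mean in the authors' values is 297.3, outside the band. Its adjusted p in the authors' values was 0.0588 by limma. ORB_0511551, higher in ketamine by 0.62 ± 0.15 (SE), did not pass (adjusted p = 0.0668 by limma).

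Probe 1994 was lower in ketamine than in 2 other treatments. It read 9.57, 9.44 and 9.35 in ketamine, 9.94, 9.99, 10.09 and 9.91 in lithium, 10.23, 9.81, 9.77 and 9.77 in L803mts, 9.75, 9.65, 9.71 and 9.69 in siGSK3b, and 9.90, 9.81, 9.57 and 9.60 in control. All ketamine arrays lay below all other arrays. Ketamine against L803mts called only this probe of the 135, against 1.29% of all tested, with a log2 difference of -0.44 ± 0.10 (SE; adjusted p = 0.043 by limma). Ketamine against lithium likewise called only this probe, against 0.585% of all tested, with a difference of -0.53 ± 0.10 (SE; adjusted p = 0.0386 by limma). These calls share the ketamine arrays, and they held in 13 and 16 of 33 alternatives. Both missed the threshold in the authors' values, at adjusted p of 0.0614 and 0.0542.

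Probe 1141 also had its lowest arrays in ketamine and did not pass. It read 9.41, 9.30 and 9.39 in ketamine, and its lowest array in any other group was L803mts 3 at 9.48. Its log2 difference was -0.42 ± 0.09 (SE) against lithium (adjusted p = 0.0525 by limma) and -0.38 ± 0.09 (SE) against L803mts (adjusted p = 0.0552 by limma). Probe 2562 was likewise lower in ketamine than in L803mts, by a log2 difference of -0.38 ± 0.10 (SE; adjusted p = 0.0595 by limma).

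The 2 pairs left called none of the 135 probes. L803mts against siGSK3b, the comparison of the inhibitor with the siRNA, called 0% of all tested probes, and 9 of the 135 had an unadjusted p under 0.05 (6.67%, against 8.68% of all tested). The probes with the smallest p there, ORB_1210415 and 2562, differed by 0.21 ± 0.07 and 0.26 ± 0.09 (SE) on the log2 scale, each with an adjusted p of 0.42 by limma. Lithium against L803mts also called 0% of all tested probes, with an unadjusted p under 0.05 for 19 of the 135 (14.07%, against 8.68% of all tested). The lowest adjusted p among them, from limma, was 0.269. These missed calls are no evidence of equal effects of the treatments compared.

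The comparisons with control use the arrays that chose the probes and share those arrays with each other, so their counts are given beside the background and nothing is read from them. The number of the 135 called was 0 in siGSK3b against 0.117% of all tested, 2 in L803mts against 2.48%, 3 in lithium against 2.34%, and 2 in ketamine against 3.39%. The L803mts calls were both lower than control. In lithium 2 were higher and 1 lower, and in ketamine both were higher. In siGSK3b 23 of the 135 had an unadjusted p under 0.05 (17.04%, against 11.49% of all tested). With the authors' values, L803mts called 1 of the 135, against 1.34% of all 747, and lithium 2, against 1.2%. By the F test over all 5 groups 5 of the 135 passed, against 3.86% of all tested. No probe of the 135 (0) was called in 3 or more treatments. The share of all tested probes called in 3 or more is not given, so nothing is read from that 0.

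ORB_1112352 had the largest difference from control among the probes called. It read 10.14, 10.11, 9.37 and 9.77 in control, 8.18, 8.70, 8.28 and 8.65 in L803mts, 8.27, 8.27, 8.64 and 9.70 in lithium, 8.91, 8.94, 8.91 and 9.04 in siGSK3b, and 9.48, 8.95 and 8.68 in ketamine. All control arrays lay above all L803mts and all siGSK3b arrays, while lithium 4 and ketamine 1 reached into the control range. It was 2.64-fold lower in L803mts than in control, a log2 difference of -1.40 ± 0.27 (SE; adjusted p = 0.00902 by limma), and this held in 33 of 33 alternatives. In lithium it was lower by a log2 difference of -1.13 ± 0.27 (SE; adjusted p = 0.0345 by limma), which held in 24 of 33. In siGSK3b and ketamine the differences were -0.90 (adjusted p = 0.189 by limma) and -0.81 (0.163). The authors' values fell 3.01-fold in L803mts, from 1088, 1024, 572 and 778 in control to 220, 344, 239 and 334.

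ORB_1112258, described above for lithium against siGSK3b, was 1.68-fold higher in lithium than in control, a log2 difference of 0.75 ± 0.12 (SE; adjusted p = 0.00249 by limma). The authors' values read 893, 711, 707 and 770 in lithium and 387, 476, 458 and 414 in control, without overlap. The call held in 32 of 33 alternatives. It was lost with spots marked not found left out, where the difference was 0.41 (adjusted p = 0.317 by limma) and the median of all tested probes in lithium against control was -0.13. Its differences in ketamine, L803mts and siGSK3b were 0.38 (adjusted p = 0.122 by limma), 0.26 (0.299) and 0.07 (0.925).

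Probe 1361 was 1.33-fold higher in lithium than in control, at 9.93, 9.87, 10.16 and 9.78 against 9.60, 9.45, 9.48 and 9.58. The groups did not overlap, and the log2 difference was 0.41 ± 0.10 (SE; adjusted p = 0.0409 by limma). The call held in 15 of 33 alternatives. ORB1118 was 1.21-fold lower in L803mts, at 8.44, 8.23, 8.31 and 8.47 against 8.70, 8.72, 8.46 and 8.69 in control. L803mts 4 lay above control 3, so these groups overlapped. Its log2 difference was -0.28 ± 0.07 (SE; adjusted p = 0.0442 by limma), a call that held in 11 of 33 alternatives.

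ORB_0511551 and ORB_1210586 were higher in ketamine than in control. ORB_0511551 read 10.40, 10.41 and 10.12 in ketamine and 9.71, 9.66, 9.90 and 9.59 in control, without overlap, a log2 difference of 0.60 ± 0.15 (SE; adjusted p = 0.0295 by limma). Of the lithium arrays, at 10.48, 10.15, 9.74 and 10.41, only lithium 3 lay inside the control range, and the difference of 0.48 did not pass (adjusted p = 0.0715 by limma). ORB_1210586 read 8.82, 8.79 and 8.88 in ketamine and 8.51, 8.43, 8.61 and 8.63 in control, also without overlap, a difference of 0.28 ± 0.07 (SE; adjusted p = 0.0362 by limma). These calls held in 24 and 20 of 33 alternatives, and neither passed in the authors' values, with adjusted p of 0.0576 and 0.123 by limma.

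In siGSK3b the smallest p-values among the 135 belonged to ORB_0409028 and 3267. ORB_0409028 read 8.70, 8.75, 8.80 and 8.69 in siGSK3b and 8.88, 9.16, 9.13 and 9.00 in control, without overlap, and its log2 difference was -0.30 ± 0.08 (SE; adjusted p = 0.133 by limma). Probe 3267 differed by -0.33 ± 0.09 (SE; adjusted p = 0.146 by limma). Without control 1, siGSK3b called 4 of the 135. The share of all tested probes called without that array is not given, so nothing is read from this count. The place of 2324, 2856, 1490 and ORB_1210296 in the band rests on the same array.

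Of the 135 probes, 8 were called in at least 1 of the 10 comparisons, against 5.9% of all tested probes. Between treatments 3 were called, against 1.93% of all tested, and against control 6, beside 5.06%. By print block of the array, the 8 were 3 of the 19 probes of the band in block 2, 1 of 22 in block 3, 2 of 8 in block 5 and 2 of 18 in block 6, with 0 among the 25, 13, 15 and 15 in blocks 1, 4, 7 and 8. The share of all tested probes called in each block is not given, so nothing is read from the blocks.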

How the data were processed

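Per the file headers, the deposited scanner files hold GenePix intensity values of 1 channel on a linear scale. Each file covers a slide of 4 arrays, and the labels name the 8 blocks of each sample, the only ones used. The authors' deposited table holds intensity values, and their normalization is not stated by the labels or headers. Its 4778 cells with a decimal point were multiplied by 1000, after which each column followed its array's background-subtracted values over the 135 probes with r of at least 0.998 and a factor of 0.780 to 1.59. Whether a centring step entered is unknown.

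Background was corrected with normexp and an offset of 50 in limma 3.58.1 (R 4.3.3, data.table version 1.17.8). The 40 control spots per array were then left out, log2 values of the 3 spots of a probe were averaged without bad spots, and arrays were quantile normalized. Of 3432 probes, 3421 had a mean foreground more than 2 background SDs over local background on at least 3 arrays. The SD of an array was estimated by the scaled median absolute deviation of its spots' local background medians. Group means were fitted on all 19 arrays, and adjusted p-values are Benjamini-Hochberg values over all tested probes from limma (two-sided, threshold 0.05). The fit was tested on simulated data.

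The probes and lists were chosen with earlier results of these data known. Named probes are those with the smallest F p among treatments, those past the threshold in each comparison (or, with fewer than 2, the 2 with the smallest p), the steadiest and most variable, and those at the band's edges. The alternatives were the authors' table, other background, scaling, filter, moderation and block settings, each array left out, and other rules for choosing the probes. Columns of other samples numbered 0.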

Additional observations from a re-analysis of the deposited data

Results flagged for a closer look

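For probes named by the rule, the highest and lowest array of each group of 4 was set against the other 3 arrays of the group. Of 108 such checks 10 stood out, where 1 in 20, about 5.4, would be due by chance in independent checks. These checks are not independent, because several of the probes varied together over the arrays. The probes were also named by their values, so nothing is read from 10 against 5.4. All values are normalized log2 intensities.

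Control 1 was far above the other control arrays for 2324 at 10.8583, where the others ran from 7.723 to 8.2113. The same array stood above its group for ORB_1210296 at 9.8297, against 8.299 to 8.3353, for ORB1101 at 10.8394, against 9.1765 to 9.3211, and for 2856 at 9.5474, against 8.3928 to 8.5572. These are the probes whose arrays split in the same way, as described above.

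The other flags fell on 1 probe each. L803mts 1 stood high for 1994 at 10.2316, against 9.7678 to 9.8123. The call of 1994 in ketamine against L803mts was lost on leaving out that array. L803mts 3 stood low for 1141 at 9.4845, against 9.8008 to 9.8568. L803mts 2 stood low for 1292 at 9.0113, against 9.1765 to 9.2055. Lithium 4 stood high for ORB_0511536 at 10.3688, against 9.7807 to 9.8777. Control 3 stood low for ORB1118 at 8.456, against 8.6933 to 8.7229. For ORB_1210586 siGSK3b 1 was low at 8.5466, against 8.6804 to 8.684. What set these arrays apart was not tested.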

How the results depend on the processing

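The counts of the 135 probes called were small, and most moved with the settings. In this section they stand without the share of all tested probes called under the same change. Whether the 135 moved apart from the rest of the array is therefore not shown. Lithium against siGSK3b, 1 as reported, called 4 in the authors' table and with cyclic loess, 3 with not-found spots left out, 5 with only the authors' probes tested, 6 with only the groups compared, and 0 with plain background subtraction, median scaling, or replicate number, array position or slide as a block. Ketamine against siGSK3b, 1 as reported, called 2 with trend and robust moderation and with the probes chosen by treated mean, and 0 in the authors' table, with background subtraction, median scaling, not-found spots left out, only the authors' probes, or any of the 3 blocks. Ketamine against L803mts, 1 as reported, called 5 with only the authors' probes, 2 with moderation, and 0 in the authors' table, with background subtraction, median scaling, loess, not-found spots left out, only the groups compared, position or slide. Ketamine against lithium, 1 as reported, called 2 with only the authors' probes, and 0 in the authors' table, with background subtraction, median scaling, loess, not-found spots left out, only the groups compared, or slide. L803mts against control, 2 as reported, called 1 in the authors' table, with background subtraction, median scaling, not-found spots left out, only the authors' probes, moderation, only the groups compared, position or slide. Lithium against control, 3 as reported, called 2 in the authors' table and 1 with background subtraction. Small moves of a count are otherwise not listed, and a count can also stay while its probes change. For lithium against control, 1361 was lost with median scaling and loess, among others. ORB_1112352 was lost there with moderation and with only the groups compared. Ketamine against control, 2 as reported, called 0 in the authors' table, with background subtraction or median scaling, 1 with loess, not-found spots left out, only the authors' probes or moderation, and 4 with only the groups compared or the treated-mean rule. The F test among treatments, 0 as reported, called 4 in the authors' table and with moderation, 1 with loess and 6 with only the authors' probes. The F test over 5 groups, added after the data were seen and 5 as reported, called 2 with background subtraction or not-found spots left out, 1 with median scaling and 8 with only the authors' probes.

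Over all tested probes no pairing of the samples by replicate number was seen. There the deviations of 36 same-numbered pairs correlated from -0.41 to 0.35, with 10 above 0.1. Their median r was -0.02, against -0.01 for 108 other pairs. Over the probes of the band, r ran from -0.55 for control 2 with lithium 2 to 0.70 for control 3 with ketamine 3. The r of other pairs over the band is not given, so pairing within it was not tested. With replicate number as a block, lithium against control called 5, the F test among treatments 1, and lithium and ketamine against siGSK3b 0 each. Array position differs from replicate number only for L803mts 2, so blocks by these are nearly the same check. Only that array was off the slide of its group, so the slide block rests on it and cannot part slide from treatment.

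Leaving out each array in turn gave 0 to 5 calls for lithium against siGSK3b (5 without L803mts 2), 0 to 2 for ketamine against siGSK3b, 0 to 3 for ketamine against L803mts (3 without lithium 4), 0 to 2 for ketamine against lithium, 0 to 4 for siGSK3b against control (4 without control 1), 1 to 4 for L803mts against control (4 without L803mts 4), 1 to 4 for lithium against control, 0 to 5 for ketamine against control (5 without L803mts 2), 0 to 3 for the F test among treatments (3 without L803mts 2) and 1 to 9 for the F test over 5 groups (1 without ketamine 2, 9 without L803mts 4). L803mts against siGSK3b and lithium against L803mts stayed at 0.

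Of 1089 recomputed results on named probes, 895 kept their side of the threshold, 150 lost it, 44 gained it and 0 changed direction past it. Those kept include the other rules for choosing the probes, which could not change the result of a single probe. The F tests among them have no direction to change. Medians moved by more than the SD of the array medians (0.0304 log2 units) in 28 of 330 recomputations, among them ketamine against control to -0.16 with median scaling and -0.28 with not-found spots left out, where 2247 probes were tested. Choosing the probes by control median gave 136 (128 shared), and by treated mean 139 (128 shared). Signal over background limits dim arrays such as L803mts 2.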

Other observations

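The 10 arrays that were brightest for 2324, ORB_1210296, ORB1101, 1490 and 2856 (control 1, siGSK3b 1 to 4, L803mts 1 to 3, ketamine 1 and 2) were also the 10 brightest arrays for 18 other tested probes, which makes 23 in all, 16 of them in the authors' table. These probes were found after the values were seen and get no test. The control means of those 16 in the authors' table ran from 50.25 for 1822 to 30700 for 1489. The widest gap between these 10 arrays and the brightest of the other 9 was 2.38 log2 units, for IGN_orb_0408010, with values from 7.86 to 13.50.

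Other probes of the band varied in orders of their own. Probes 2135 and 2132 were both high on control 2 (9.79 and 9.59), siGSK3b 4 (9.69 and 9.64) and lithium 3 (9.59 and 9.88), and low on control 3 (8.49 and 8.48), control 4 (8.45 and 8.43) and ketamine 3 (8.23 and 8.24). ORB_1210144 was highest on ketamine 1 at 10.03 and lithium 4 at 9.99, arrays on which ORB_1112352 was also the highest of its group. Probe 1907 had a spot SD of 0.894, the array range being 7.47 on L803mts 2 to 9.64 on control 1.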
